A study of Homo sapiens with 35 samples.

Results

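Gene expression in DU145 cells depleted of ZMYND8 was compared directly with that in DU145 cells depleted of JARID1D. The comparison used 4 of the 35 samples of the series, namely the RNA sequencing libraries shZMYND8 (n = 2) and shJARID1D (n = 2), and described 15674 genes with enough fragments to be tested, of 28443 kept. DU145 is an established prostate cancer line derived from a brain metastasis. All cells were grown in the same medium, and each group carried a short hairpin RNA, against ZMYND8 or against JARID1D. A further 2 libraries, shLuciferase, carried a hairpin against luciferase and served as the control. Their values are given beside the others for orientation and did not enter the test. Whether the 2 libraries of a group stem from different cultures is not in the labels, nor is the number of hairpins or whether the cells were pools or clones. The p-values thus reflect only how far these libraries differ, possibly for technical reasons. The other 29 samples were not analysed here.

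ZMYND8 is a chromatin reader that binds acetylated and methylated histone tails through its PHD, bromo and PWWP domains and works with repressor complexes such as NuRD. JARID1D, encoded by the Y-linked gene KDM5D, is a KDM5 family enzyme that erases methylation at the H3K4 position of histone tails. Both have been described as partners that restrain genes at promoters and enhancers, so a direct comparison asks where loss of the reader and loss of the demethylase leave different transcriptomes.

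The 4 libraries had deposited totals of 22925611 to 24188350 estimated fragments, and a count of 3 fragments, the limit that a count of 0 allows (counting error only), corresponds to 0.109 to 0.145 CPM (fragments scaled to a common library size with the trimmed mean of M values). Between 4.39% and 5.9% of a library's fragments fell on its top 3 genes. Log2 CPM correlated at 0.991 across genes between the shZMYND8 libraries and at 0.989 between the shJARID1D libraries. The 6 epithelial markers summed to 1677 to 2177 CPM in the 4 libraries. The 7 stromal markers summed to 5.59 and 5.94 CPM in shZMYND8 and to 3.77 and 2.36 CPM in shJARID1D, with DCN at 0 in all 6 libraries, and the 6 endothelial markers to 0.738 to 1.86 CPM. The 7 leukocyte markers summed to 56.1 and 44.8 CPM in shZMYND8 and to 46.8 and 44.2 CPM in shJARID1D, with 4 of them, PTPRC, CD3E and LYZ included, at no more than 3 fragments in any library. The 6 neural markers summed to 88.2 and 92.5 CPM in shZMYND8 and to 90.1 and 84.7 CPM in shJARID1D, with OLIG2 at 0 in all libraries. Of the neural markers, the microtubule gene MAP2 was higher in shZMYND8 (31.2 and 32.3 against 18.5 and 15.6 CPM, 0.90 ± 0.12) and the synaptic vesicle gene SYP lower (1.37 and 1.12 against 2.70 and 2.14 CPM, -0.96 ± 0.31). In the control SYP was at 0.852 and 1.11 CPM. SYP did not pass with all 6 libraries fitted (adjusted p = 0.0717) or without shJARID1D replicate 1 or 2 (0.189 and 0.0790). The part of other cell types in the results was not tested. In bulk RNA, fewer cells that express a gene and less RNA per cell cannot be told apart.

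Both targets were low in the group labelled for them. ZMYND8 was at 35.5 and 33.2 CPM in shZMYND8 and at 69.7 and 63.7 CPM in shJARID1D (64.8 and 52.8 CPM in the control). Its log2 fold change, shZMYND8 over shJARID1D throughout, was -0.96 ± 0.10 (SE), with an adjusted p of 0.000251. KDM5D was at 55.5 and 59.8 CPM in shZMYND8 and at 19.6 and 17.9 CPM in shJARID1D (58.1 and 61.1 CPM in the control), a log2 fold change of 1.62 ± 0.11 (adjusted p = 3.78e-05). The groups did not overlap for either gene. The other KDM5 demethylases did not pass the threshold, with -0.22 for KDM5A (adjusted p = 0.0991), 0.20 for KDM5B (0.149) and 0.17 for KDM5C (0.247). Among 9 other Y-linked genes tested, 7 did not pass. DDX3Y, an RNA helicase gene, was higher in shZMYND8 (212 and 246 against 101 and 101 CPM, log2 fold change 1.18 ± 0.11), with the control at 211 and 205 CPM. EIF1AY, a translation initiation factor gene, was lower (17 and 16 against 26.3 and 28.2 CPM, -0.73 ± 0.11). X- and Y-linked relatives are near copies whose shared fragments cannot be assigned surely, so these levels are uncertain.

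The transcriptomes differed at many genes of moderate size of change. Of the genes tested, 4252 (27.1%) passed an adjusted p of 0.05 in edgeR's quasi-likelihood test, 2224 of them higher in shZMYND8 (14.2%) and 2028 lower (12.9%). The counts of list members below are to be read against these shares. Higher and lower mean shZMYND8 over shJARID1D, and do not say which group departed from the control. The median log2 fold change was 0.60 over the higher genes and -0.55 over the lower genes, against 0.00 over all genes tested. A change of at least 2-fold was seen in 470 higher and 335 lower genes, and of at least 4-fold in 82 and 61. The libraries of the groups did not overlap for 65.6% of all genes tested (33.2% higher and 32.4% lower in shZMYND8), so that absence of overlap by itself says little here.

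How many genes passed depended on which libraries were fitted and on how the spread was estimated. When either shZMYND8 library was left out, no gene passed edgeR's adjusted threshold, although 4234 genes (without replicate 1) and 4109 (without replicate 2) had an unadjusted p under 0.05. Without shJARID1D replicate 1 or 2, 1782 and 1752 genes passed. Adding the control libraries, so that all 6 informed the spread, 2490 genes passed, 2488 of them among the 4252. Leaving out a compared library in that fit left 551 to 632. None of the 4252 genes changed sign in any of these fits. Counts from the fit of all 6 libraries are therefore given beside the gene groups, with the range over the fits that leave a compared library out of it.

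**Figure D1:**
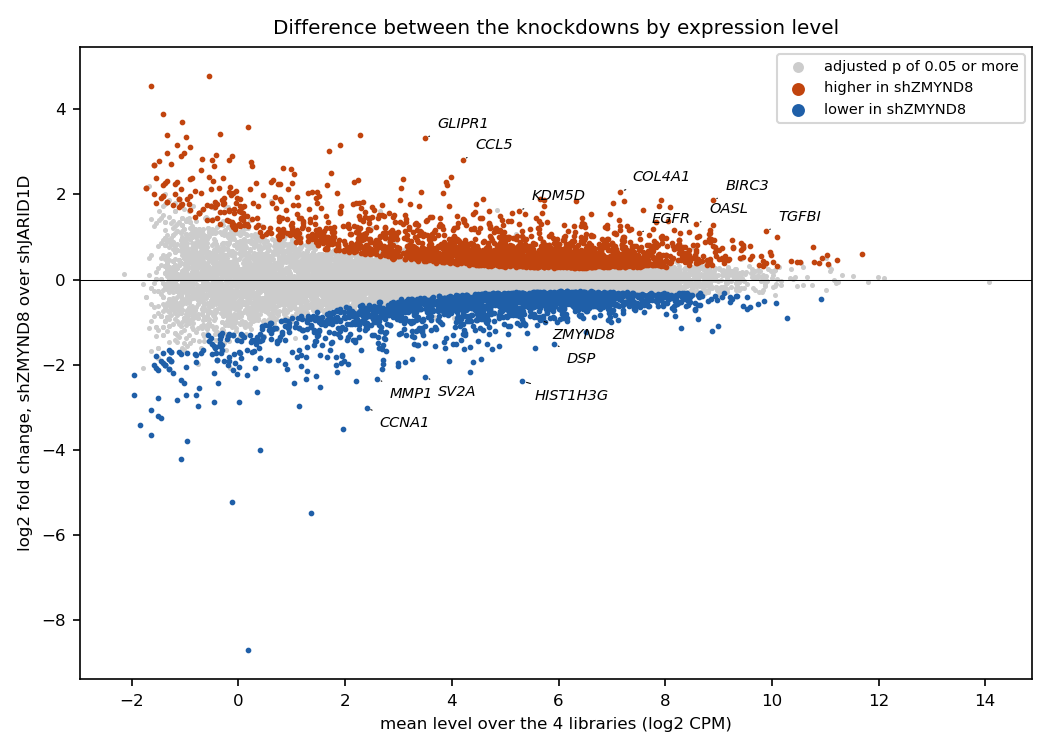
Log2 fold change of shZMYND8 over shJARID1D (vertical axis) against the mean level over the 4 libraries in log2 CPM (horizontal axis), 1 point for each of 15674 genes. Coloured points passed an adjusted p of 0.05, with 2224 higher and 2028 lower in shZMYND8, and 14 of the named genes are labelled.

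The 15 largest rises joined interferon-linked genes with matrix and cytoskeletal genes. They were taken from genes past the threshold that averaged 5 CPM or more and had no overlap between shZMYND8 and shJARID1D. GLIPR1, which encodes a secreted protein of the pathogenesis-related family, was at 22.8 and 18.1 CPM in shZMYND8, at 1.58 and 2.49 CPM in shJARID1D and at 3.88 and 3.13 CPM in the control. Its log2 fold change of 3.33 ± 0.22 (adjusted p = 3.78e-05) headed the list. The chemokine gene CCL5 (43.2 and 21.3 against 5.35 and 3.77 CPM, 2.82 ± 0.31), the apoptosis-linked gene XAF1 (2.42 ± 0.41), the ubiquitin-like modifier gene UBD (2.37 ± 0.27), APOL3 (2.15 ± 0.26), OAS2 (1.87 ± 0.38) and ETV7 (1.86 ± 0.30) are known to be induced by interferon. In each of these the shZMYND8 libraries differed from one another, replicate 1 being the higher, and XAF1 and ETV7 no longer passed without shJARID1D replicate 2 (adjusted p = 0.0653 and 0.0552), nor OAS2 without either shJARID1D library (0.0743 and 0.105).

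The remaining large rises came from genes of several other kinds. ZC3HAV1L was at 22.1 and 27.4 CPM in shZMYND8 and at 5.78 and 4.88 CPM in shJARID1D (2.21 ± 0.16), and the potassium channel gene KCNK3 at 16.3 and 18.3 against 4.03 and 4.33 CPM (2.05 ± 0.16). The hair keratin gene KRT81 (30.6 and 18.4 against 6 and 4.03 CPM, 2.29 ± 0.25) and the ferritin receptor gene SCARA5 (28.2 and 17.4 against 6.38 and 4.71 CPM, 2.04 ± 0.23) were again higher in shZMYND8 replicate 1 than in replicate 2. The basement membrane collagen gene COL4A1 (2.07 ± 0.13), the actin-binding gene TAGLN (1.90 ± 0.14) and the apoptosis inhibitor gene BIRC3 (1.87 ± 0.11) completed the group with RPS17L. RPS17L is a near copy of a ribosomal protein gene whose fragments may be divided arbitrarily. It stood at 106 and 51.9 against 21.4 and 21 CPM, but at 16.4 and 509 CPM in the control, and with all 6 libraries fitted it did not pass (adjusted p = 0.239).

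The 15 largest falls, chosen in the same way, ranged from -3.02 to -1.87 on the log2 scale. CCNA1, the cyclin A gene otherwise known from germ cells, was at 1.16 and 1.16 CPM in shZMYND8, at 10.6 and 8.31 CPM in shJARID1D and at 7.58 and 7.42 CPM in the control (-3.02 ± 0.24, adjusted p = 6.79e-05). The collagenase gene MMP1 was at 1.46 and 2.53 against 9.51 and 10.8 CPM (-2.35 ± 0.25). SV2A, a synaptic vesicle protein gene, was at 4.41 and 3.26 against 19.7 and 18 CPM (-2.29 ± 0.17). C16orf45 was nearly the same within each group (7.29 and 7.51 against 33 and 33.6 CPM, -2.17 ± 0.12). The choice of genes required both shZMYND8 libraries to lie below both shJARID1D libraries. For these genes they also lay below both control libraries.

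The remaining falls were HIST1H3G (-2.39 ± 0.18), the tetraspanin gene TSPAN1 (-2.10 ± 0.29), TMEM45B (-2.04 ± 0.19), the cornified envelope gene SCEL (-1.98 ± 0.18), TNFRSF11A, which encodes the RANK receptor (-1.97 ± 0.18), the carbonic anhydrase-related gene CA11 (-1.94 ± 0.20), EXPH5 (-1.94 ± 0.12), the aspartic protease gene NAPSA (-1.91 ± 0.26), the ubiquitin ligase gene RNF128 (-1.88 ± 0.19), CALHM2 (-1.87 ± 0.17) and the tight junction gene CLDN4 (-1.87 ± 0.17). CA11 differed from the others in its control level. It was at 15.8 and 11.7 CPM in shJARID1D, against 3.94 and 3.22 CPM in shZMYND8 and 4.64 and 3.90 CPM in the control. All 15 passed with all 6 libraries fitted and without either shJARID1D library.

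**Figure D2:**
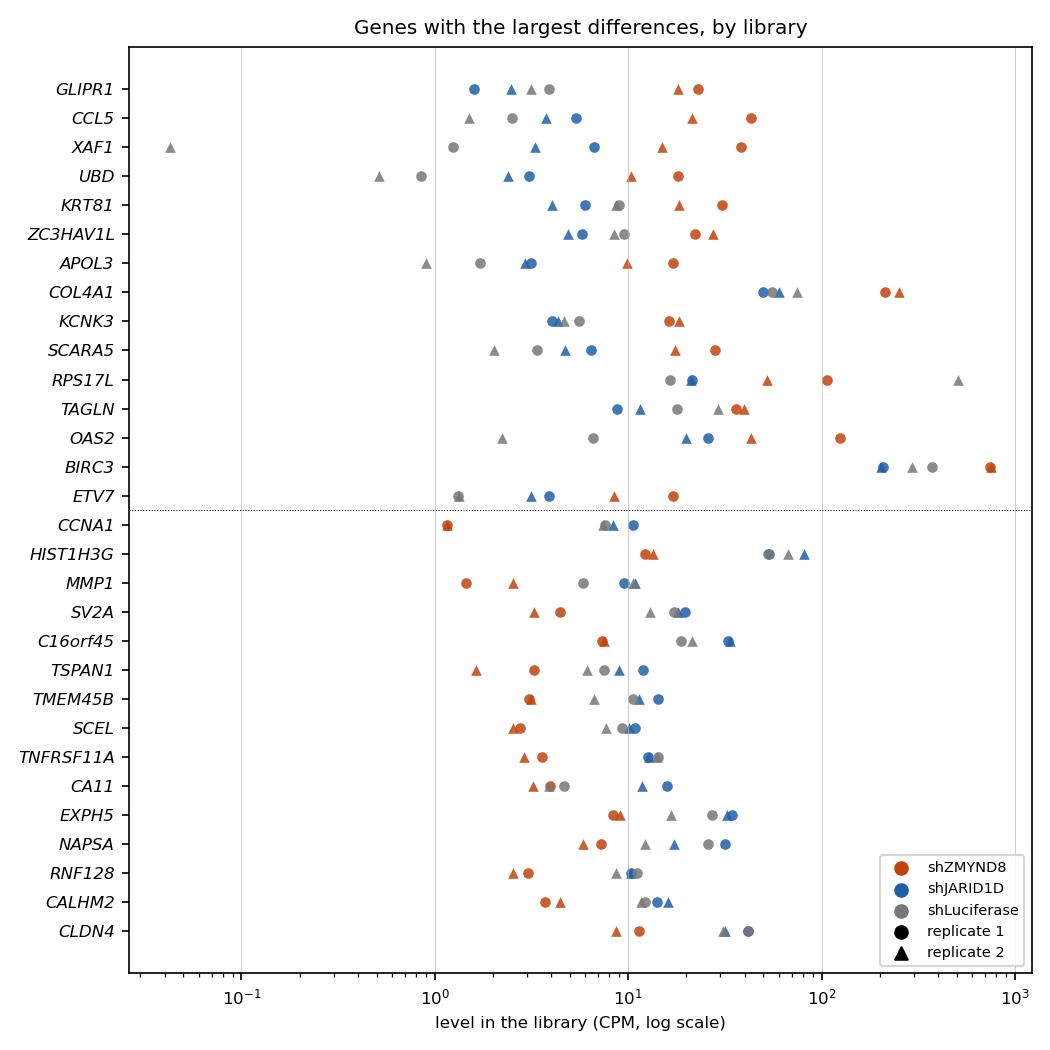
Level of the 15 genes with the largest rises (above the dotted line) and the 15 with the largest falls in each of the 6 libraries, in CPM on a log axis. Circles are replicate 1 and triangles replicate 2, with shZMYND8 in red, shJARID1D in blue and the shLuciferase control in grey. The red points lie to the right of the blue ones above the line and to the left below it, as the choice of genes required.

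Interferon-stimulated genes, which cells switch on through STAT and IRF factors and whose products act against viruses, were mostly higher in shZMYND8. Of 45 tested, 27 were higher, 0 were lower and 18 did not pass, with a median log2 fold change of 0.85 against 0.00 over all genes. The geometric mean level over the 45 genes was 101 and 47.5 CPM in shZMYND8, 44.5 and 34.7 CPM in shJARID1D, and 16.5 and 9.70 CPM in the control. The list's level in shZMYND8 replicate 2 thus lay close to that in shJARID1D replicate 1. All 45 genes were higher in shZMYND8 replicate 1 than in replicate 2, and 29 had libraries that did not overlap between the groups, higher in shZMYND8, as did 33.2% of all genes tested.

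IFIT2, which binds viral RNA, was at 520 and 312 CPM in shZMYND8 and at 135 and 119 CPM in shJARID1D (119 and 71.4 CPM in the control), a log2 fold change of 1.71 ± 0.20 (adjusted p = 0.000439). OASL, of the oligoadenylate synthetase family, was at 715 and 381 against 224 and 217 CPM (1.31 ± 0.23). LGALS3BP, which encodes a secreted glycoprotein, was at 419 and 230 against 141 and 115 CPM (1.34 ± 0.23). Without shZMYND8 replicate 1 the estimates fell to 1.30 for IFIT2, 0.79 for OASL and 0.85 for LGALS3BP. OASL did not pass without shJARID1D replicate 1 or 2 (adjusted p = 0.0614 and 0.0630), nor LGALS3BP without replicate 2 (0.0660). With all 6 libraries fitted, 15 of the 45 genes passed, and 3 and 28 when shZMYND8 replicate 1 or 2 was left out, and 3 and 1 when shJARID1D replicate 1 or 2 was. With DESeq2 12 passed, and without a filter on low counts 1 passed.

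Sequences before the start sites were searched for the element read by interferon-activated factors, a pair of GAAA words with any 2 bases between them, searched on both strands in the 250 bases upstream of the start in RefSeq's GRCh38.p14 promoters. It was present in 62.2% of the 37 promoters matched to the list in 3.07% of all 27305 promoters and in 2.31% of the 11470 that matched a tested gene. Within the list, 11 of 20 promoters of genes past the threshold held it, and 12 of 17 of those not past it. Of the members past the threshold that held it, the 3 with the smallest adjusted p are shown, with genes on a single chromosome left out of the choice. They run 5′ to 3′ on the gene's strand, with the element in capitals. Being chosen for holding the element, they do not stand for the list.
LGALS3BP, chr17:78979927-78980026, minus strand: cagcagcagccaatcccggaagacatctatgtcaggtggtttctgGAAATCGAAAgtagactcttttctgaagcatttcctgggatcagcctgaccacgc
IFIT3, chr10:89327830-89327929, plus strand: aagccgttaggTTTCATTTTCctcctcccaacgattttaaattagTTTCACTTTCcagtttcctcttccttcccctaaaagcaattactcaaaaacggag
PARP14, chr3:122680765-122680838, plus strand: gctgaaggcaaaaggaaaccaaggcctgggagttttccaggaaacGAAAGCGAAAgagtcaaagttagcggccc
The stretch shown for IFIT3 holds 2 copies on the opposite strand. IFIT3 was at 773 and 488 against 358 and 308 CPM (0.92 ± 0.19) and PARP14, an ADP-ribosyltransferase gene, at 596 and 390 against 297 and 261 CPM (0.82 ± 0.18). Neither passed without shJARID1D replicate 1 (adjusted p = 0.0603 and 0.0672) or replicate 2 (0.0983 and 0.109).

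Upstream of these effectors, the interferon pathway's own components moved less in the median. Of 28 tested, 9 were higher in shZMYND8 and 0 lower (median 0.19). The interferon lambda gene IFNL1, named after its values were seen, had the list's largest log2 fold change. It was at 1.29 and 0.643 against 0.0857 and 0.129 CPM (3.11 ± 0.64), near the limit in shJARID1D. IFNL2 and IFNL3 had too few fragments to be tested. TLR3, the endosomal sensor of double-stranded RNA, was at 20.8 and 12.3 against 6.51 and 6.26 CPM (1.38 ± 0.23). MAVS, the adaptor of the cytosolic RNA sensors, was at 84.2 and 90.4 against 57.5 and 52.2 CPM (0.67 ± 0.10), with the control at 79.4 and 71.5 CPM. The receptor chain gene IL10RB (0.60 ± 0.11) and the transcription factor gene IRF1 (0.60 ± 0.12) were higher as well. IRF1 did not pass without shJARID1D replicate 1 or 2 (adjusted p = 0.0569 and 0.0704), nor IL10RB and TLR3 without replicate 2 (0.0635 and 0.0501). IRF9, a component of the factor that drives the response and named after its values were seen, did not pass (-0.20, adjusted p = 0.353). With all 6 libraries fitted 6 of the 28 passed, and 0 to 3 with a library left out of that fit.

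Antigen presentation genes followed with 7 of 21 higher and 1 lower (median 0.34). All 21 were higher in shZMYND8 replicate 1 than in replicate 2. Their geometric mean level was 122 and 90.6 CPM in shZMYND8 and 93.6 and 86.2 CPM in shJARID1D, so the groups overlapped in this mean. The peptide-trimming aminopeptidase genes ERAP1 (228 and 207 against 127 and 125 CPM, 0.79 ± 0.10) and ERAP2 (275 and 240 against 158 and 136 CPM, 0.81 ± 0.12) and the peptide transporter gene TAP1 (453 and 315 against 203 and 232 CPM, 0.82 ± 0.16) were higher. The class II gene HLA-DRA was the lower one, at 2.19 and 1.24 against 7.84 and 4.03 CPM (-1.79 ± 0.36), and it did not pass with all 6 libraries fitted (adjusted p = 0.0561) or without shJARID1D replicate 1 (0.0809). In that fit 3 of the genes were higher, and 1 to 7 with a library left out. TAP1 did not pass without shJARID1D replicate 1 or 2 (0.0874 and 0.0511).

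Of 21 cytokine and chemokine genes, 8 were higher in shZMYND8 and 1 lower (median 0.31). Besides CCL5 these included CSF1, the macrophage growth factor gene, at 314 and 292 against 130 and 136 CPM (1.19 ± 0.10, adjusted p = 0.000119), IL6 at 80.8 and 58.2 against 26.6 and 24.6 CPM (1.44 ± 0.15), and IL11 at 12.7 and 16.7 against 6.77 and 7.71 CPM (1.02 ± 0.17). IL11 was at 8.82 and 15.5 CPM in the control. CSF1 stood below the control in shJARID1D and above it in shZMYND8, the control libraries being at 167 and 155 CPM. The single lower gene, CXCL5, which encodes a neutrophil chemokine and was named after its values were seen, was at 2.87 and 3 against 5.83 and 7.37 CPM (-1.17 ± 0.22). The fit of all 6 libraries called 7 higher and 1 lower, and 3 to 5 higher with a library left out.

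Genes of the NF-kB pathway, a set of dimeric factors held by inhibitors until inflammatory signals release them, split: 8 of 28 were higher and 2 lower (median 0.10). Inhibitor-of-apoptosis genes, which act downstream of tumour necrosis factor receptors, were among those higher. BIRC3 was at 745 and 749 CPM in shZMYND8, at 208 and 202 CPM in shJARID1D and at 374 and 292 CPM in the control (1.87 ± 0.11, adjusted p = 2.37e-05). BIRC2, its neighbour in the family, was at 271 and 289 against 143 and 129 CPM with the control at 205 and 199 CPM (1.04 ± 0.10). The adaptor gene TRAF1 (35.9 and 37.7 against 13.2 and 16.7 CPM, 1.30 ± 0.13) and the inhibitor gene TNIP1 (0.62 ± 0.11) were higher too. The subunit gene RELA, named after its values were seen, did not pass (0.15, adjusted p = 0.275). Another subunit gene named in this way, NFKB1, was lower, at 85.7 and 91.1 against 107 and 117 CPM (-0.34 ± 0.09, 0.0237). NFKB1 did not pass with all 6 libraries fitted (0.0666). With all 6 libraries fitted 7 were higher, and 3 or 4 with a library left out.

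**Figure D3:**
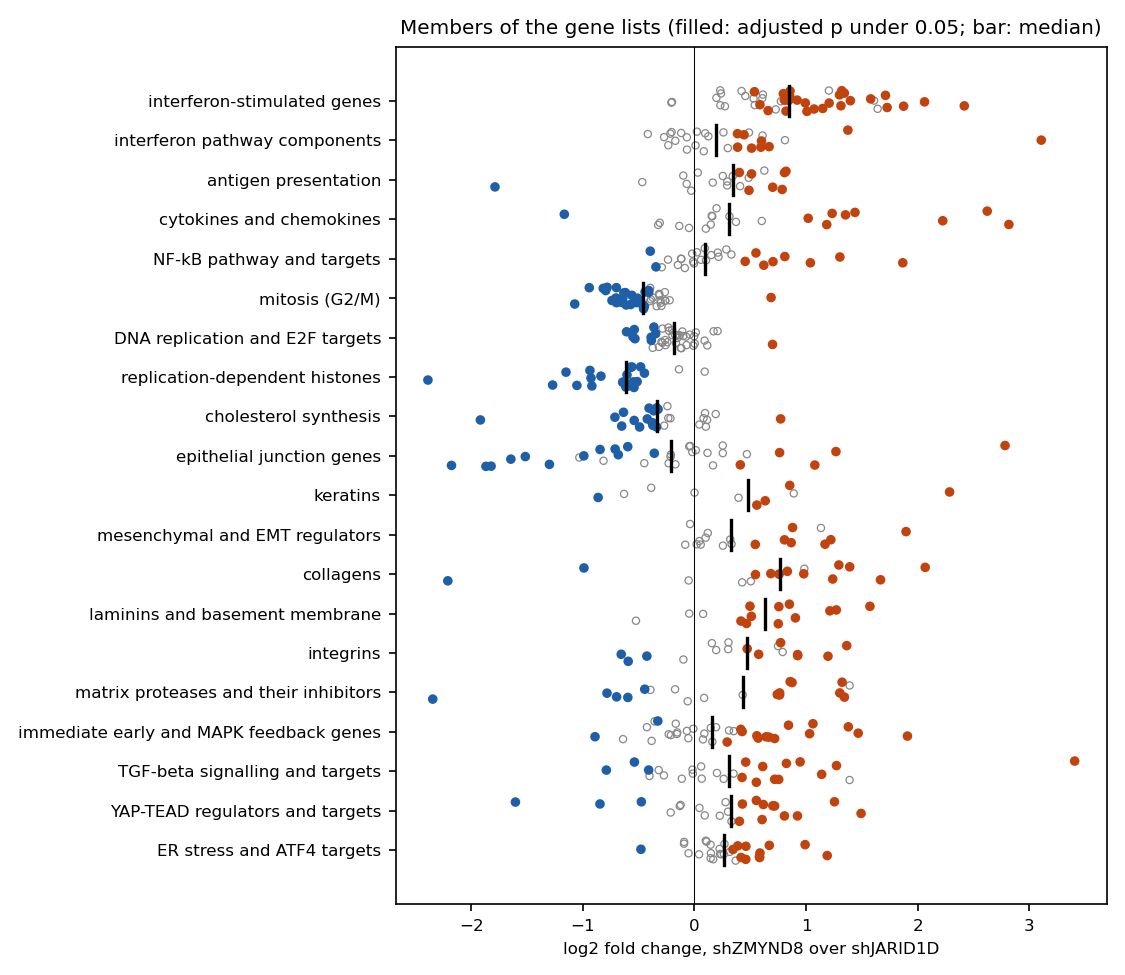
Log2 fold change of shZMYND8 over shJARID1D for every tested member of 20 gene lists, 1 point per gene. Filled points passed an adjusted p of 0.05, red higher and blue lower in shZMYND8, and the black bar is the list's median, at 0.85 for the interferon-stimulated genes, -0.46 for the mitosis genes and 0.63 for the laminins.

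Mitosis genes, whose transcripts peak in G2 and M phase, were lower in shZMYND8. Of 40 tested, 25 were lower, 1 was higher and 14 did not pass, with a median of -0.46. Their geometric mean level was 94.7 and 111 CPM in shZMYND8, 134 and 154 CPM in shJARID1D, and 169 and 172 CPM in the control. The outer kinetochore gene NUF2 was at 24.9 and 28.7 against 55.1 and 57.7 CPM (-1.07 ± 0.11, adjusted p = 0.000205) and its partner NDC80 at 85.1 and 94.6 against 150 and 161 CPM (-0.79 ± 0.10). UBE2C, the ubiquitin-conjugating enzyme gene of the anaphase-promoting complex, was at 94.2 and 94.9 against 165 and 199 CPM (-0.94 ± 0.11). The centromeric histone gene CENPA was at 27.1 and 29.5 against 46.8 and 50.6 CPM (-0.78 ± 0.10).

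The exception was the phosphatase gene CDC25B, named after its values were seen, at 155 and 144 against 97.0 and 88.4 CPM (0.69 ± 0.10). Other regulators chosen in the same way did not pass, such as CCNB1 (-0.34, adjusted p = 0.0801), PLK1 (-0.40, 0.0893) and AURKA (-0.22, 0.210). Replicate 1 was below replicate 2 of shZMYND8 for 39 of the 40 genes. With all 6 libraries fitted 18 were lower. With shZMYND8 replicate 1 or 2 left out of that fit 3 and 6 were lower, and with shJARID1D replicate 1 or 2 left out 11 and 5.

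The element of cell cycle promoters spelled TTTGAA, searched on both strands in the same windows, was present in 48.5% of the 33 promoters matched to the mitosis list in 13.6% of all 27305 promoters and in 8.35% of the 11470 that matched a tested gene. It was found in 9 of 20 promoters of genes past the threshold and in 7 of 13 of the others. Of the members past the threshold that hold it, the 3 with the smallest adjusted p are shown. Genes on the single chromosome left out of the interferon choice were again not eligible. They are on the gene's strand, with the element in capitals. Being chosen for holding the element, they do not stand for the lower mitosis genes. The element ended 12 bases before the start site in CENPA, 14 in PRC1 and 155 in CDK1.
CENPA, chr2:26785993-26786055, plus strand: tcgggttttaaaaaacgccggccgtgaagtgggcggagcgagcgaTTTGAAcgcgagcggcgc
PRC1, chr15:90994536-90994600, minus strand: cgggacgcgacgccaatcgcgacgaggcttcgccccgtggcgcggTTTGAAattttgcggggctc
CDK1, chr10:60778125-60778220, plus strand: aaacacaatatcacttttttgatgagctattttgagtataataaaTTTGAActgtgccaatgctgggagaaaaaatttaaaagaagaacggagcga
PRC1, a cross-linker of spindle microtubules, was at 174 and 200 against 318 and 342 CPM (-0.82 ± 0.11), and CDK1, the kinase that drives entry into mitosis, at 130 and 134 against 204 and 224 CPM (-0.70 ± 0.10). Both stood lower in all 4 libraries than in the control, at 431 and 443 CPM for PRC1 and 265 and 245 CPM for CDK1.

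Replication-dependent histone genes, which are transcribed in S phase and encode the bulk of nucleosomal histones, were lower in shZMYND8 in 22 of 24 cases and higher in 0 (median -0.61). The geometric mean level was 101 and 111 CPM in shZMYND8, 151 and 201 CPM in shJARID1D, and 151 and 187 CPM in the control. HIST1H3G was at 12.2 and 13.5 against 53.6 and 80.9 CPM with the control at 53 and 67.3 CPM (-2.39 ± 0.18), and the linker histone gene HIST1H1B at 183 and 205 against 357 and 505 CPM (-1.15 ± 0.16). HIST1H1D (-1.27 ± 0.16) and HIST1H2AD (-0.84 ± 0.11) were lower as well. The pair that did not pass, named after their values were seen, was HIST1H2BK (-0.14, adjusted p = 0.420) and HIST3H2A (0.09, 0.716). Histone genes are near copies of one another, and most of their transcripts lack a poly(A) tail. Selection for poly(A) is not stated in the labels. With all 6 libraries fitted 14 were lower, and 13 without shJARID1D replicate 1 in that fit and 3 without any other compared library. The CCAAT box, spelled CCAAT and searched on both strands, was present in 91.3% of 23 matched histone promoters in 33.0% of all promoters and in 34.6% of those that matched a tested gene.

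**Figure D4:**
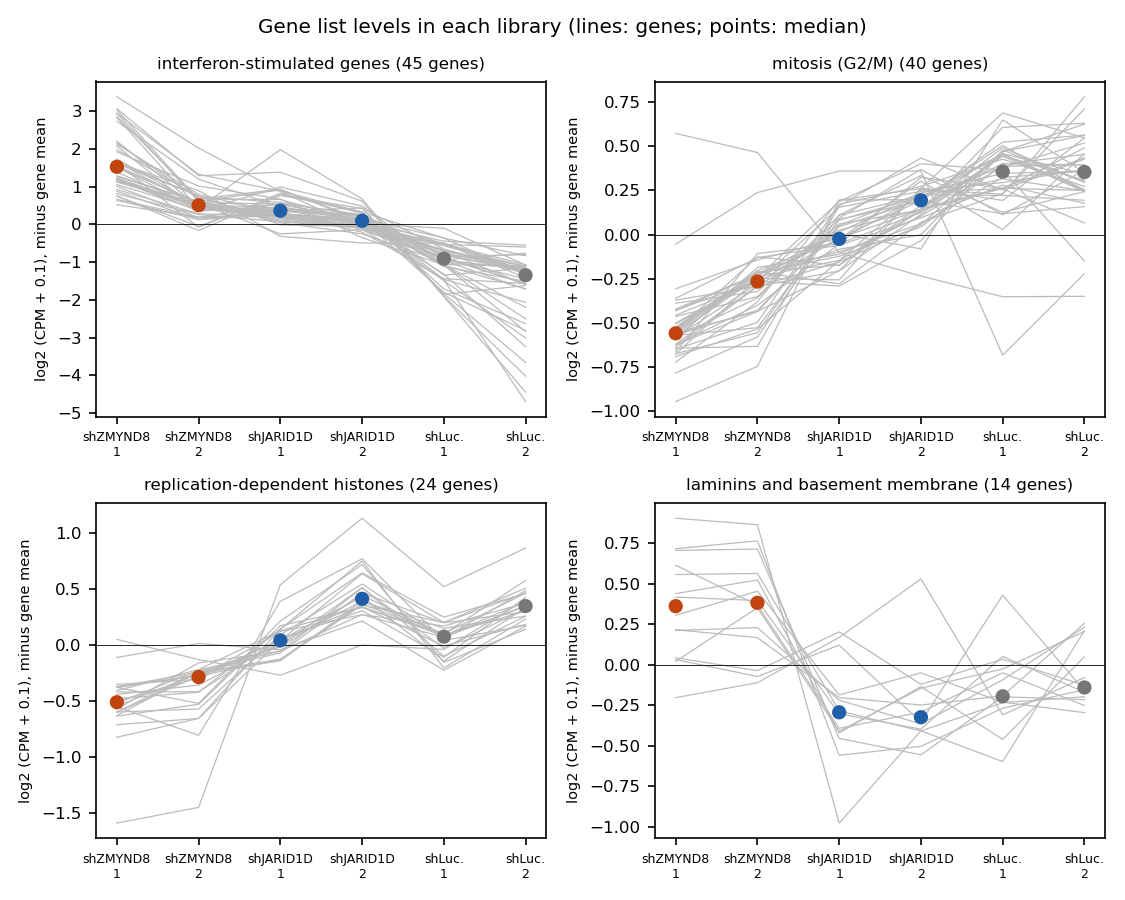
Level of each gene of 4 lists in each of the 6 libraries, as log2 of CPM plus 0.1 minus the gene's mean over the 6 libraries. Grey lines are genes and coloured points medians. The interferon-stimulated genes are highest in shZMYND8 replicate 1, the mitosis genes and histones are lowest in the shZMYND8 libraries, and the medians of the laminins are close within each group.

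DNA replication and E2F target genes moved less than mitosis genes: 8 of 42 were lower and 1 higher (median -0.18). These are 19.0% and 2.38%, against 12.9% and 14.2% of all genes tested. The clamp loader subunit genes RFC3 (33.0 and 32.9 against 47.9 and 52.6 CPM, -0.61 ± 0.10) and RFC5 (-0.53 ± 0.09) were lower. The G1/S cyclin gene CCNE1 was the higher one, at 18.3 and 17.4 against 11.6 and 10.4 CPM (0.70 ± 0.13). In the joint fit of 6 libraries 4 were lower, and 0 with any compared library left out. Under library totals alone 16 were lower.

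Among 17 G1 cyclins, kinases and inhibitors, 6 were lower and 4 higher (median -0.06). After CCNA1, CDKN2C (38.7 and 32.3 against 55.4 and 53.9 CPM, -0.62 ± 0.11) and CDK4 (101 and 91.0 against 130 and 144 CPM, -0.51 ± 0.10) were lower. CDK4 was at 99.5 and 117 CPM in the control. CCND2 was higher at a low level, 1.59 and 1.42 against 0.386 and 0.343 CPM (2.03 ± 0.41), and did not pass without shJARID1D replicate 2 (adjusted p = 0.0536). CDK4 did not pass without the same library (0.0603). In the fit of all 6 libraries 4 were lower and 2 higher, and 1 or 2 lower with a library left out.

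Genes of epithelial junctions were more often lower than higher in shZMYND8. Of 33 tested, 12 were lower and 5 higher (median -0.21). The desmosomal plaque gene DSP was at 32.1 and 30.8 CPM in shZMYND8, at 95.2 and 84.7 CPM in shJARID1D and at 87.8 and 71.0 CPM in the control (-1.52 ± 0.10, adjusted p = 4.13e-05). The desmosomal gene PKP3 was at 28.3 and 26.5 against 49.3 and 49.1 CPM (-0.85 ± 0.10) and CLDN4 at 11.4 and 8.67 against 41.4 and 31.7 CPM. The epithelial adhesion gene EPCAM was at 6.90 and 5.83 against 17.4 and 14 CPM (-1.30 ± 0.17).

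Not all junction genes went this way. CLDN1, another tight junction gene, was at 107 and 113 against 39.5 and 52.2 CPM with the control at 22.2 and 24.7 CPM (1.27 ± 0.13), and E-cadherin, CDH1, at 83.8 and 73.5 against 41.8 and 32.7 CPM (1.08 ± 0.13). All these genes passed without either shJARID1D library and with all 6 libraries fitted. That fit called 11 lower and 4 higher, and 5 to 7 lower with a library left out. Among 10 keratin genes 4 were higher and 1 was lower. KRT80 was at 140 and 159 against 76.7 and 89.0 CPM (0.85 ± 0.11). KRT18 was at 346 and 395 against 221 and 256 CPM (0.63 ± 0.12), with the control at 335 and 428 CPM. KRT19 was the lower one, at 199 and 214 against 355 and 396 CPM (-0.86 ± 0.11). KRT18 did not pass without shJARID1D replicate 1 (adjusted p = 0.0611). The fit of all 6 libraries gave the counts 4 and 1, and 1 or 2 higher with a library left out.

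Mesenchymal genes and regulators of epithelial-mesenchymal transition were higher in 7 of 18 cases and lower in 0 (median 0.33). TAGLN was at 35.9 and 39.5 CPM in shZMYND8, at 8.78 and 11.4 CPM in shJARID1D and at 17.8 and 29.0 CPM in the control. The secreted glycoprotein gene FSTL1 was at 37.4 and 36.6 against 15.1 and 16.6 CPM (1.22 ± 0.11), the tropomyosin gene TPM1 at 365 and 430 against 169 and 184 CPM (1.17 ± 0.12) and the collagen cross-linking enzyme gene LOXL2 at 552 and 558 against 274 and 329 CPM (0.88 ± 0.12). The common mesenchymal markers VIM (0.02, adjusted p = 0.915) and FN1 (0.06, 0.760), named after their values were seen, did not pass. Across the 6-library fit 5 were higher, and 3 to 5 with a library left out.

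Basement membrane genes, which encode the sheet of laminin, collagen IV and perlecan under epithelia, were higher with replicates close together. Of 14 laminins and other basement membrane genes 11 were higher and 0 lower (median 0.63), and their geometric mean level was 115 and 117 CPM in shZMYND8, 74.4 and 76.1 CPM in shJARID1D, and 81.2 and 87.2 CPM in the control. The perlecan gene HSPG2 was at 167 and 172 against 68.8 and 71.5 CPM (1.27 ± 0.09, adjusted p = 5.92e-05). The laminin chain genes LAMB1 (167 and 168 against 74.6 and 69.5 CPM, 1.21 ± 0.09) and LAMA1 (153 and 154 against 85.7 and 78.6 CPM, 0.91 ± 0.10) and the linker gene NID1 (68.9 and 67.9 against 41.8 and 39.2 CPM, 0.76 ± 0.09) were higher. Fitted with all 6 libraries 9 passed, and 4 with any compared library left out.

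Of 17 collagen genes, 10 were higher and 2 lower (median 0.77). The collagen IV genes COL4A1 and COL4A2, which share a promoter region and whose chains form a joint trimer, stood together. COL4A1 was at 212 and 250 CPM in shZMYND8, at 49.8 and 60.3 CPM in shJARID1D and at 55.6 and 74.5 CPM in the control. COL4A2 was at 191 and 214, 72.6 and 81.9, and 75.1 and 108 CPM (1.39 ± 0.11). The hemidesmosome collagen gene COL17A1 (52.8 and 55.7 against 20.7 and 23.5 CPM, 1.29 ± 0.11) and COL18A1 (0.98 ± 0.10) were higher. The lower genes, named after their values were seen, were COL4A5 (0.471 and 0.214 against 1.63 and 1.59 CPM, -2.21 ± 0.45) and COL13A1 (-0.99 ± 0.23), of which COL13A1 did not pass with all 6 libraries fitted (adjusted p = 0.0559) or without either shJARID1D library (0.0730 and 0.0777), nor COL4A5 without replicate 1 (0.0522). That fit called 10 higher, and 5 or 6 with a library left out.

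Integrin genes, whose products bind these matrix proteins at the cell surface, were higher in 7 of 17 cases and lower in 3 (median 0.47). ITGB3 was at 48.2 and 50.8 CPM in shZMYND8, at 17.9 and 20.6 CPM in shJARID1D and at 34 and 32.5 CPM in the control (1.37 ± 0.11), so the groups lay on opposite sides of the control. Its partner ITGAV (382 and 425 against 215 and 211 CPM, 0.92 ± 0.11), the shared beta chain gene ITGB1 (0.77 ± 0.11) and the fibronectin receptor gene ITGA5 (0.93 ± 0.14) were higher. Once the control libraries were added 7 were higher and 2 lower, and 4 higher with any compared library left out.

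Matrix proteases and their inhibitors went both ways, with 8 of 19 higher and 5 lower (median 0.43). The urokinase gene PLAU was at 863 and 909 CPM in shZMYND8, at 489 and 489 CPM in shJARID1D and at 867 and 1046 CPM in the control (0.86 ± 0.10). Its low group was thus shJARID1D. ADAM19 was at 65.1 and 70.4 against 35.8 and 38.1 CPM (0.88 ± 0.10). SERPINE2, a protease inhibitor gene, was lower, at 41.0 and 39.8 against 70.2 and 68.8 CPM, with the control at 40.9 and 33.8 CPM (-0.78 ± 0.09). The fit of all 6 libraries called 7 higher and 3 lower, and 4 or 5 higher with a library left out.

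Genes recalled from the study as linked to invasion and metastasis also went both ways, which is no independent evidence, since they were chosen with results of these libraries known. The growth factor receptor gene EGFR was at 225 and 270 CPM in shZMYND8, at 114 and 119 CPM in shJARID1D and at 161 and 160 CPM in the control (1.09 ± 0.11, adjusted p = 0.000252). The hyaluronan receptor gene CD44 was at 222 and 220, 132 and 122, and 176 and 166 CPM (0.80 ± 0.10, 0.000563). Each stood above the control in shZMYND8 and below it in shJARID1D. MMP1 was lower, as given above. The transcription factor gene SNAI2 (5.27 and 4.80 against 5.10 and 3.34 CPM, 0.26 ± 0.24, 0.464) and the angiogenic factor gene VEGFA (341 and 308 against 380 and 313 CPM, -0.09 ± 0.12, 0.613) did not pass, and MMP2, MMP3 and MMP7 had too few fragments to be tested. EGFR, CD44 and MMP1 passed with all 6 libraries fitted and with any compared library left out of that fit.

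In the EGFR family, of 14 receptors, ligands and regulators 4 were higher and 1 lower (median 0.02). The ligand gene HBEGF was at 34.9 and 36.3 against 18.0 and 19.2 CPM (0.94 ± 0.10). The negative regulators LRIG1 (23.6 and 23.7 against 14.2 and 12 CPM, 0.85 ± 0.12) and ERRFI1 (608 and 587 against 398 and 366 CPM, 0.65 ± 0.11) were higher beside the receptor they act on. The receptor gene ERBB3, named after its values were seen, was the lower one (-0.38 ± 0.11) and did not pass with all 6 libraries fitted (adjusted p = 0.0705) or without either shJARID1D library (0.0956 and 0.135). That fit called 4 higher, and 2 or 3 with a library left out.

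Immediate early genes, induced within minutes of growth factor signals, and feedback genes of the MAPK pathway were higher in 14 of 35 cases and lower in 2 (median 0.16). The nuclear receptor genes NR4A2 (11.4 and 10.4 against 4.41 and 3.47 CPM, 1.47 ± 0.18) and NR4A3 (1.03 ± 0.17) and the factor genes KLF2 (7.54 and 7.08 against 2.61 and 3 CPM, 1.38 ± 0.20) and ETV4 (0.84 ± 0.13) were higher. The pair of lower genes, named after their values were seen, was FOS (36.7 and 28.5 against 70.8 and 50.05 CPM, -0.89 ± 0.17) and IER5 (-0.33 ± 0.10, adjusted p = 0.0902 with all 6 libraries fitted, and 0.101 and 0.144 without shJARID1D replicate 1 or 2). FOS did not pass without shJARID1D replicate 1 (0.0599). In the joint fit of 6 libraries 9 were higher, and 2 to 4 with a library left out.

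TGF-beta signalling genes and targets were higher in 11 of 26 cases and lower in 3 (median 0.31). The ligand gene BMP7 was at 8.32 and 9.52 CPM in shZMYND8, at 0.942 and 0.728 CPM in shJARID1D and at 1.36 and 1.20 CPM in the control (3.41 ± 0.25, adjusted p = 5.92e-05). LTBP2, which encodes a matrix protein related to latent TGF-beta binding proteins, was at 96.8 and 97.9 against 39.8 and 40.7 CPM (1.27 ± 0.09), and the TGF-beta-induced matrix gene TGFBI was higher by 1.14 ± 0.11. PMEPA1, a feedback inhibitor gene, was lower, at 26.4 and 26.8 against 46.2 and 45.6 CPM (-0.79 ± 0.10). The fit of all 6 libraries called 10 higher and 2 lower, and 3 to 5 higher with a library left out.

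For YAP and TEAD, the factors that answer to the Hippo pathway, 11 of 23 regulators and targets were higher and 3 lower (median 0.33). ANKRD1 was at 35.9 and 52.5 against 14.7 and 16.7 CPM (1.49 ± 0.17), CRIM1 at 778 and 825 against 403 and 442 CPM (0.92 ± 0.11), and the upstream Hippo gene NF2 at 202 and 237 against 78.6 and 105 CPM (1.26 ± 0.14). The tissue factor gene F3 was lower, at 22.2 and 24.3 against 62.2 and 79.2 CPM (-1.60 ± 0.13). Across the 6-library fit 9 were higher and 3 lower, and 3 to 6 higher with a library left out. Without shJARID1D replicate 1 the test of the remaining 3 libraries called 3 higher.

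Wnt pathway genes were higher in 8 of 28 cases and lower in 2 (median 0.29). The receptor gene FZD4 was at 38.8 and 28.9 against 10.6 and 9 CPM (1.79 ± 0.16), the co-receptor gene LRP5 at 113 and 111 against 58.9 and 59.8 CPM (0.91 ± 0.09), and FZD2, another receptor gene, was lower at 17.5 and 16.7 against 27.9 and 31.3 CPM (-0.79 ± 0.11). DKK3, a secreted protein of the Dickkopf family, was at 23.2 and 27.6 CPM in shZMYND8, at 8.48 and 9.56 CPM in shJARID1D and at 29.7 and 33.7 CPM in the control (1.49 ± 0.14). Its low group was thus shJARID1D. The fit of all 6 libraries called 7 higher and 1 lower, and 3 or 4 higher with a library left out.

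Cholesterol synthesis genes, targets of the SREBP factors, were lower in 14 of 26 cases and higher in 1 (median -0.34). LSS, lanosterol synthase, was at 110 and 116 against 185 and 184 CPM (-0.71 ± 0.10), and HSD17B7 at 23.4 and 24.4 against 37.0 and 38.2 CPM (-0.65 ± 0.10). INSIG1, which holds SREBP in the endoplasmic reticulum, was the higher one, at 240 and 231 against 140 and 136 CPM (0.77 ± 0.10). The control was at 224 and 195 CPM. Fitted with all 6 libraries 5 were lower, and 1 or 2 with a library left out.

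Stress pathways showed smaller groups of changes. Of 29 genes of endoplasmic reticulum stress and ATF4, 11 were higher and 1 lower (median 0.26), among them the secreted glycoprotein gene STC2 (305 and 344 against 160 and 166 CPM, 0.99 ± 0.11), the chaperone gene DNAJB9 (31.2 and 28.4 against 15 and 11.1 CPM, 1.19 ± 0.15) and EDEM1 (0.59 ± 0.09). Once the control libraries were added 7 were higher, and 2 with any compared library left out. Of 20 p53 targets, 5 were higher and 5 lower (median -0.06), against 14.2% and 12.9% of all genes tested, with the p53 ligase gene MDM2 at 122 and 130 against 72.8 and 79.4 CPM (0.73 ± 0.10). In the joint fit of 6 libraries 4 of these were higher and 1 lower, and 0 or 1 each way with a library left out. Without a filter on low counts 4 were higher and 0 lower. Of 21 hypoxia response genes 6 were higher and 2 lower (median 0.14), among them EPAS1, which encodes an oxygen-regulated factor, at 146 and 145 against 91.0 and 77.3 CPM (0.79 ± 0.10), and PLOD2, a collagen-modifying enzyme gene (1.01 ± 0.11). The fit of all 6 libraries called 5 of them higher and 2 or 3 with a library left out.

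In both chromatin lists described here 6 of 20 genes passed, a share near the 27.1% of all genes tested. Of 20 genes of the NuRD complex and other ZMYND8 partners, 2 were higher and 4 lower (median -0.17). The remodeller gene CHD3 was at 103 and 132 against 171 and 186 CPM (-0.60 ± 0.13) and the methyl-DNA reader gene MBD2 at 34.9 and 37.9 against 50.7 and 48.3 CPM (-0.44 ± 0.10). CHD3 did not pass without shJARID1D replicate 2 (adjusted p = 0.0731), nor MBD2 without replicate 1 or 2 (0.0708 and 0.0501). Across the 6-library fit 2 of the 20 were higher and 3 lower, and 0 or 1 lower with a library left out. Of 20 genes of H3K4 methylation and demethylation, 5 were higher and 1 lower (median 0.09), with the methyltransferase gene KMT2A at 126 and 134 against 89.1 and 82.2 CPM (0.60 ± 0.09). Fitted with all 6 libraries 2 of these were higher, and 0 with a compared library left out.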

How the data were processed

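RNA from DU145 cells was sequenced in 6 libraries, of which 4 were compared. The deposited values are expected counts, that is fragments estimated per gene by the authors' software in a Cuffdiff gene table of 28503 genes, per the file headers. Per the submitters' processing notes, the tools were Cuffdiff, edgeR 3.12.0, Bowtie 1.1.2 and TopHat2 2.0.12 (roles not stated) on hg19. No label states strand or annotation, which leaves antisense and overlapping genes uncertain. Columns named Rac7_KO were taken as shZMYND8, since an antibody label gives RACK7 as another name of ZMYND8. In the deposited counts 1 fragment was worth 0.881 to 1.16, and 84.4% to 84.6% of values in the 4 libraries lay within 0.05 of a whole number once divided by it. The 60 genes marked as unquantified (HIDATA) in any of the 6 libraries were left out. The 18 variance columns were not used.

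Counts were rounded to whole numbers and tested with edgeR (R 4.3.3, edgeR 4.0.16, quasi-likelihood, trimmed mean of M values, filterByExpr, Benjamini-Hochberg over the 15674 genes left, threshold 0.05), on the 4 compared libraries without the control. The common biological coefficient of variation was 9.38%, with 2 residual and a median of 8.1 prior degrees of freedom. Standard errors were the log2 fold change divided by the square root of F. Alternatives used other scalings and filters, DESeq2 1.42.0, limma 3.58.1 (voom), a replicate block and left-out libraries. Leaving each compared library out of the fit of all 6 was added after seeing the data. Scripts were tested on simulated data. Tables were made with pandas 2.3.3 (Python 3.11.15) and figures with matplotlib 3.10.9.

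The comparison and gene lists were chosen with earlier results of these data known. After the table was seen but before any fit, outdated symbols in the lists were replaced and the targets were taken out of the lists. The genes named are the targets and their relatives, the 15 largest rises and falls past the threshold with a mean of at least 5 CPM and no overlap, up to 4 members of each list by smallest adjusted p, the metastasis genes recalled from the study, the 3 promoters of each kind shown, and genes marked in the text as named after their values were seen. Promoters are RefSeq's for GRCh38.p14. Genes on a single chromosome were not eligible as promoter examples. Of the 15674 genes tested 11470 matched one, so shares over them leave out many tested genes and are a description only. Of the lists, 37 of 45 interferon-stimulated, 33 of 40 mitosis and 23 of 24 histone genes matched. Results for some genes are not reported here.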

Additional observations from a re-analysis of the deposited data

How the results depend on the processing

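The number of genes past the threshold (4252, of which 2224 higher and 2028 lower in shZMYND8) stayed within 1.5 times under other scalings, a mean count of at least 50, DESeq2 (1788 and 1641), limma voom, and the choices on unquantified genes, failed genes and the deposited scaling. More genes were lower than higher under upper quartile scaling (2096 higher and 2169 lower) and under library totals alone (1903 and 2566), so which direction held more genes depended on the scaling. The number was 2490 with all 6 libraries fitted (1376 and 1114), 2028 without a filter (1093 and 935), and 805 for changes of at least 2-fold (470 and 335). At an adjusted p under 0.01 it was 1905 (1079 and 826). Leaving out 1 library gave 0 to 1782 genes, from 0 to 968 higher and from 0 to 824 lower. Leaving shZMYND8 replicate 1, shZMYND8 replicate 2, shJARID1D replicate 1 or shJARID1D replicate 2 out of the fit of all 6 libraries gave 602 (387 and 215), 551 (379 and 172), 627 (380 and 247) and 632 (352 and 280) genes, with 67 and 31, 101 and 25, 70 and 45, and 60 and 30 list members higher and lower. With an arm of 1 library, its spread was assumed to equal that of the other group or groups. Of the gene list members, 231 were higher and 156 lower. The lower were 95 with all 6 libraries fitted, the higher and lower 138 and 84 without a filter and 75 and 24 at 2-fold or more, the lower 86 at an adjusted p under 0.01, and with a library left out 0 to 127 were higher and 0 to 97 lower. Of 222 genes chosen by the naming rules or after their values were seen, not all of them reported here, 202 passed. Of those 202, 19 did not pass with all 6 libraries fitted, and none reversed in any alternative run. Without a filter the lower genes were 13 of the mitosis, 9 of the histone and 8 of the cholesterol list, and the higher genes 6 each of the immediate early and endoplasmic reticulum stress lists. The causes were not tested.

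Groups share replicate numbers in the labels, but nothing says that a number pairs libraries. Deviations of same-numbered libraries correlated at 0.099 across genes. With the replicate block 5449 genes passed (2816 higher and 2633 lower), and 293 list members were higher and 193 lower.

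Depth limited genes near 0.109 to 0.145 CPM, and n = 2 a group limited all tests.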

Other observations

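Of 12 genes of S100 calcium-binding proteins, 4 were lower in shZMYND8 and 1 was higher (median -0.15). S100A13 was at 58.6 and 50.4 CPM in shZMYND8 and at 129 and 128 CPM in shJARID1D (99.6 and 102 CPM in the control), a log2 fold change of -1.23 ± 0.10 (SE), with an adjusted p of 9.02e-05 in edgeR. S100A6 had a log2 fold change of -0.90 ± 0.11. S100A10 stood at 263 and 286 against 440 and 395 CPM (-0.60 ± 0.11), with the control at 351 and 282 CPM. The higher gene, S100P, named after its values were seen, was at 1.5 and 1.07 against 0.343 and 0.386 CPM (1.81 ± 0.43) and did not pass without shJARID1D replicate 1 or 2 (adjusted p = 0.0883 and 0.0752). With all 6 libraries fitted the counts were again 4 and 1, and 2 or 3 were lower with a library left out of that fit. Single genes of other lists also differed. Of 18 complement and coagulation genes 3 were higher and 3 lower (16.7% each), near the 14.2% and 12.9% of all genes tested. Complement component C3 was at 272 and 197 CPM in shZMYND8, at 64.5 and 65.1 CPM in shJARID1D and at 39.5 and 18.8 CPM in the control (1.85 ± 0.15). The lysosomal protease gene CTSL1 was at 349 and 299, 665 and 710, and 354 and 372 CPM (-1.09 ± 0.12), so that shJARID1D stood apart from the other groups. Of 27 glycolysis and gluconeogenesis genes 4 were higher (14.8%) and 3 lower (11.1%), near the 14.2% and 12.9% of all genes tested. The gluconeogenic enzyme gene FBP1 was at 1.93 and 1.42, 6.64 and 6.56, and 11.9 and 12.1 CPM (-1.98 ± 0.24).

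Some genes passed with at most 3 fragments in both libraries of a group, 17 of them low in shJARID1D and 12 low in shZMYND8. A gene so low in a group entered the test only through its level in the other group. The filter thus fixed the direction of these calls, which are a description only. How many such genes were tested was not counted. The genes given below were named after their values were seen. PRKCB, a protein kinase C gene, had 30 and 39 fragments in shZMYND8 and 1 and 1 in shJARID1D, with 6 and 12 in the control. The interferon lambda gene IFNL1 had 32 and 17 fragments against 2 and 3, with 4 and 0 in the control, and did not pass without shJARID1D replicate 1 or 2 (adjusted p = 0.0749 and 0.0590). KIT, a receptor kinase gene, had 1 and 1 fragments in shZMYND8, 12 and 10 in shJARID1D, and 10 and 8 in the control. KIT had too few fragments to be tested without shJARID1D replicate 1 or 2. By gene class, 15.2% of 13357 protein-coding genes tested were higher and 14.1% lower, against 8.23% and 7.5% of 547 long noncoding RNA genes. Classes were assigned by gene name, and 1254 tested genes had no match. Expression level, which affects whether a gene can pass, was not taken into account, so the shares do not compare the response of the classes.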
